A study of Arabidopsis thaliana with 12 samples.

Results

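The 9 genes described here are ethylene response factors (ERFs) of group IX of the AP2/ERF family, chosen by their AGI identifiers. They are ERF1A (AT4G17500), ERF2 (AT5G47220), ERF5 (AT5G47230), ERF6 (AT4G17490), ERF13 (AT2G44840), ERF104 (AT5G61600), ERF105 (AT5G51190), ERF1B (AT3G23240) and ORA59 (AT1G06160). All 9 were found among the 33197 gene identifiers of the table of all samples, and all 9 passed the filter on low values with 20753 genes in all, which required at least 1 FPKM in at least 2 libraries. RNA was sequenced from whole Arabidopsis seedlings at 10 days of age. The genotypes were the mutant asr3-1, the single transgenic line OX9, in which HA-tagged ASR3 is expressed from 35S, a constitutive viral promoter, and wild type (WT), for which the labels give the cultivar Col-0. ASR3 encodes a trihelix transcription factor. Seedlings of each genotype were given flg22, a flagellin peptide perceived by the receptor FLS2, for 30 min, or were left without it. All seedlings had first been kept in water overnight. The dose is 100 nM in the design text and 100 mM in the treatment protocol. The experiment was done in 2 independent repeats, which gave 2 libraries for each of the 6 groups. RNA of 2 biological replicates was pooled in a library, so the p values below measure a spread between pools. In fits without a term for the repeat, this spread includes the difference between the 2 repeats. Where the repeats are compared, the error comes from the 3 genotypes, and each repeat was a single experiment.

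ERFs carry an AP2/ERF DNA-binding domain and are best known for binding the GCC box, a motif in the promoters of ethylene-responsive defence genes. Most group IX members described so far activate transcription. ERF104 and ERF6 are known substrates of the flg22-activated MAP kinases (MPK6 for ERF104, MPK3 and MPK6 for ERF6), while ERF1B and ORA59 are known for joining ethylene and jasmonate signals on defensin genes such as PDF1.2.

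In the reference annotation (RefSeq, TAIR10.1) all 9 genes have 1 transcript with 1 exon. Several lie beside each other. ERF6 (chromosome 4, 9752824 to 9754161, minus strand) and ERF1A (9759203 to 9760391, plus strand) are divergent neighbours, 5041 bases apart with no protein-coding gene between them. ERF2 (chromosome 5, 19171643 to 19172956, minus strand) and ERF5 (19179881 to 19181182, plus strand) have the same layout, 6924 bases apart with 1 protein-coding gene between them. ERF104 (chromosome 5, 24766344 to 24767732, minus strand) lies 832 bases from another group IX gene, AT5G61590. ERF1B (chromosome 3, 8295617 to 8296604, plus strand) lies 5452 bases from the group IX gene TDR1 (AT3G23230). ERF13 (chromosome 2, 18495215 to 18496327) and ORA59 (chromosome 1, 1882907 to 1883992) are both on the plus strand. ERF105 (chromosome 5, 20800473 to 20801437, minus strand) lies over its whole length of 965 bases inside AT5G51180, a gene on the opposite strand. The sources used here do not say whether reads keep their strand, so how reads of this pair were assigned is unknown. AT5G51180 itself was listed at 12.6 to 16.9 FPKM in flg22 libraries and at 10.6 to 15.2 FPKM in those without. ERF105 was listed at 87.1 to 801 FPKM with flg22 and at 6.39 to 14.0 FPKM without. The listed values of the pair thus lay apart with flg22 and overlapped without it, where a share of AT5G51180 reads in ERF105 was not tested.

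The 250 bases upstream of the annotated start are shown for 4 members that stand for the patterns described below. ERF5 stands for the genes with large rises, ERF2 and ERF1A for the smaller rises that moved together, and ORA59 for the gene that did not follow. Capitals mark matches, on either strand, to the GCC box core GCCGCC, the W box core TTGAC, which WRKY factors bind, the CGCG core CGCGT, and the G box CACGTG. Positions are counted back from the annotated start. Sequences are 5′ to 3′ on the strand of the gene, from RefSeq TAIR10.1: chr5:19179631-19179880 (plus strand) for ERF5, chr5:19172957-19173206 (minus strand) for ERF2, chr4:9758953-9759202 (plus strand) for ERF1A and chr1:1882657-1882906 (plus strand) for ORA59.
ERF5: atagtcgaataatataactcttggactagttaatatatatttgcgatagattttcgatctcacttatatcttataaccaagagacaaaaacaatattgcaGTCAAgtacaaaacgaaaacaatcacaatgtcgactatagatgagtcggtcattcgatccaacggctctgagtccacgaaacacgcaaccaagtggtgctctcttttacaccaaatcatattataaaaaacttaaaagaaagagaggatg
ERF2: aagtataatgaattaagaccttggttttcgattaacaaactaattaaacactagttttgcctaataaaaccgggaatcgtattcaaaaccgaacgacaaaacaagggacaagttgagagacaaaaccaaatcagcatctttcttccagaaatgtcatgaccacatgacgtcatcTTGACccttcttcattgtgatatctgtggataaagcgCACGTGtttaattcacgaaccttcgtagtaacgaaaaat
ERF1A: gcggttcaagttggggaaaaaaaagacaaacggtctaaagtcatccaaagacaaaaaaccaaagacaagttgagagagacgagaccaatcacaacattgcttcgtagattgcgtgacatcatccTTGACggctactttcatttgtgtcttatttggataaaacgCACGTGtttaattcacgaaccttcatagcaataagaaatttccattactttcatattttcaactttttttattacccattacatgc
ORA59: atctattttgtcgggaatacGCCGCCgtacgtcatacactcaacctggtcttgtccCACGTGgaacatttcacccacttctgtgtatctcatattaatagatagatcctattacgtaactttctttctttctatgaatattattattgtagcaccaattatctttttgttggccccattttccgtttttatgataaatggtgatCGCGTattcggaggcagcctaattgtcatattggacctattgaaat
A GCC box core was present in 1 of the 9 members, ORA59, and in 1.9% of 27437 promoters of protein-coding genes of the same length. A W box core was present in 5 of 9 members (ERF1A, ERF2, ERF5, ERF13 and ERF105) and in 44.9% of promoters. ERF6, ERF104 and ERF1B held no match to any of these motifs. The G box was present in 3 of 9 members (ERF1A, ERF2 and ORA59) and in 6.5% of promoters, and CGCGT in 1 of 9 (ORA59) and in 6.9%. ERF1A and ERF2 share an identical run of 26 bases around their G box, which begins at base -88 in ERF1A and at base -41 in ERF2.
shared run: cgCACGTGtttaattcacgaaccttc
Among all 36 pairs of members the next longest shared run was 13 bases. These matches describe the letters only.

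ASR3 itself served as a check of the genotype labels. It lay at 2.50 to 6.58 FPKM in the asr3-1 libraries, at 384 to 590 FPKM in the OX9 libraries and at 6.24 to 9.59 FPKM in the WT libraries, so asr3-1 and WT overlapped over all libraries. Within the same repeat and treatment asr3-1 was below WT in each of 4 pairs, with 3.44 FPKM in asr3-1 against 6.34 in WT and 2.53 against 8.53 with flg22, and 2.50 against 6.24 and 6.58 against 9.59 without. The libraries of the repeats stood apart. MT1A, a metallothionein gene, held 10.17 to 16.07% of the FPKM sum in repeat 2 and 1.46 to 1.78% in repeat 1, and between repeats 52.8% of tested genes differed with flg22 and 44.5% without it (limma). The sources used here give no read numbers, so the depth behind an FPKM is unknown. Green tissue and root markers were present in every library, as the label of whole plants implies. The 8 green markers summed to 45030 to 65551 FPKM with flg22 and 51795 to 70895 FPKM without, and to 45030 to 58068 FPKM in repeat 2 and 56725 to 70895 FPKM in repeat 1. The 8 root markers summed to 113.8 to 158.5 FPKM with flg22 and 108.4 to 140.8 FPKM without, and to 108.4 to 130.8 FPKM in repeat 2 and 113.8 to 158.5 FPKM in repeat 1. No marker of either list was listed at 0, and their part in the results below was not tested. In whole seedlings, fewer cells of a type and less RNA per cell cannot be told apart.

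The first comparison asked how the 9 factors respond to flg22. Over the 3 genotypes 8 of the 9 rose: ERF105, ERF6, ERF13, ERF5, ERF104, ERF2, ERF1A and ERF1B, by log2 differences of 1.24 to 4.80 in limma on log2(FPKM + 1). ORA59 did not pass (log2 0.13, SE 0.61, adjusted p = 1). Over all genes tested the same comparison called 4.1%, 3.83% higher and 0.265% lower. With the replicate number as a block all 8 passed as well, beside 15.8% of all genes. In all 8 genes that rose, each of the 6 flg22 libraries lay above each of the 6 libraries without flg22, an arrangement found in 6.19% of all genes tested. Levels can be compared between genes because FPKM is per length. With flg22 the medians over 6 libraries ran in the order ERF105 (432 FPKM), ERF6 (292), ERF5 (150.3), ERF104 (129), ERF1A (48.8), ERF13 (31.8), ERF2 (26.3), ORA59 (6.07) and ERF1B (1.95). Without flg22 the order was ERF104 (14.9 FPKM), ERF1A (13.2), ERF105 (10.5), ERF6 (9.46), ERF5 (8.58), ERF2 (4.72), ORA59 (4.65), ERF13 (0.674) and ERF1B (0.169). Between neighbours in these orders the ranges over 6 libraries overlapped, except between ERF2 and ORA59 with flg22 and between ORA59 and ERF13 without.

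**Figure D1:**
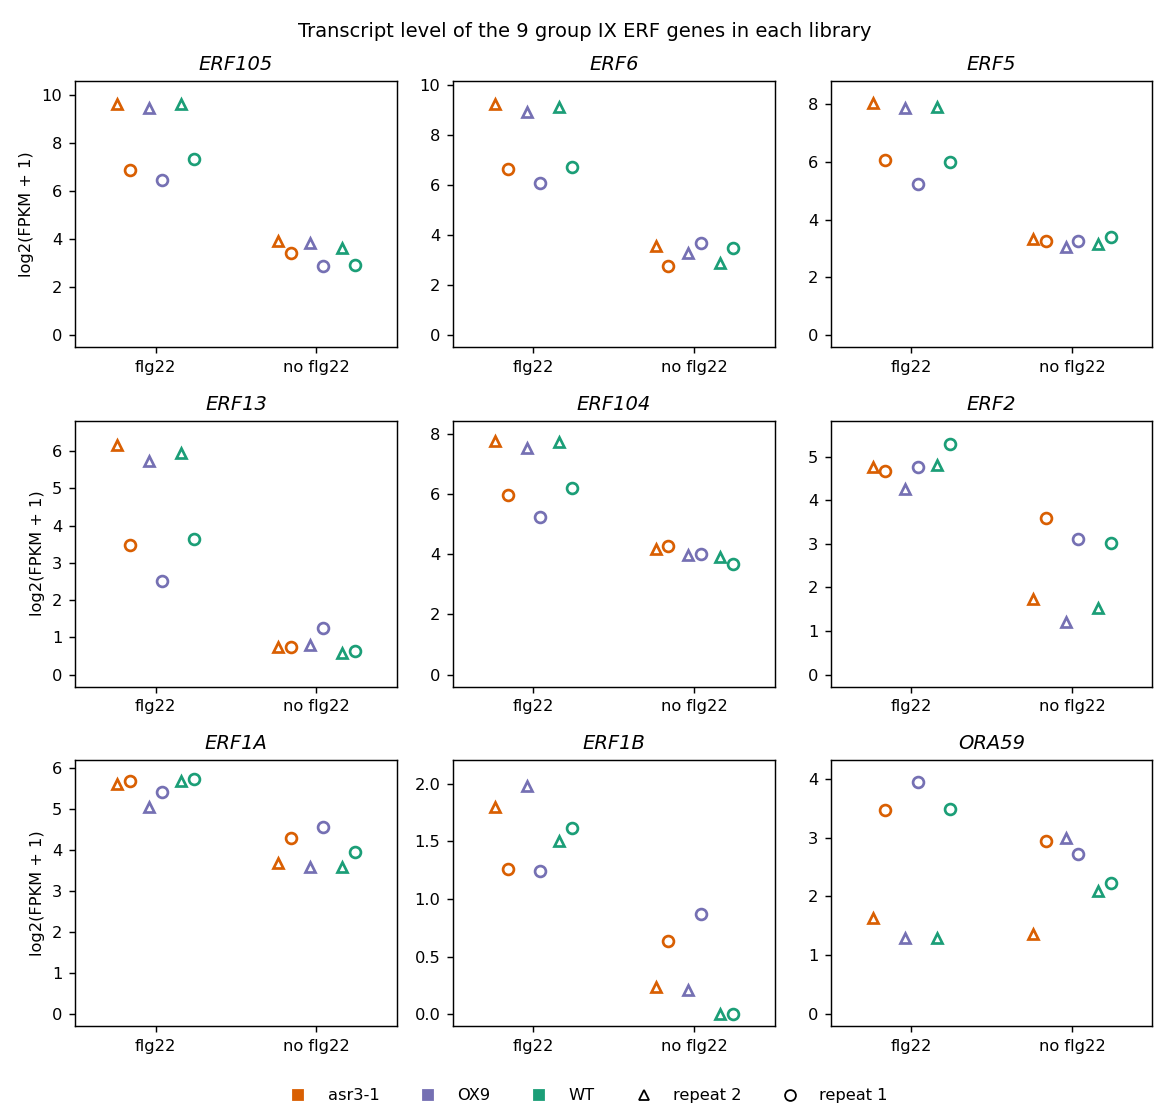
Level of each gene as log2(FPKM + 1) in the 6 libraries with flg22 and the 6 without; colours are genotypes, triangles repeat 2 and circles repeat 1, and each point is 1 library. All genes except ORA59 have every flg22 library above every library without flg22, and for ERF105, ERF6, ERF5, ERF13 and ERF104 the flg22 libraries of repeat 2 lie above those of repeat 1.

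ERF105, an activator studied mainly in cold and freezing tolerance, reached the highest level of the group. With flg22 it stood at 793 and 118 FPKM in asr3-1, at 704 and 87.1 FPKM in OX9 and at 801 and 160.0 FPKM in WT, the library of repeat 2 first in each pair here and in the values of the following genes. Without flg22 it stood at 14.0 and 9.79 FPKM in asr3-1, at 13.5 and 6.39 FPKM in OX9 and at 11.2 and 6.53 FPKM in WT. The lowest treated library was that of OX9 in repeat 1, and it was still above every untreated one. The difference over the 3 genotypes was 4.80 on the log2 scale (SE 0.70, limma adjusted p = 0.0113).

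ERF6, a MAP kinase substrate tied to defence against fungi and to growth under stress, followed closely. With flg22 it stood at 606 and 99.4 FPKM in asr3-1, at 480.3 and 66.4 FPKM in OX9 and at 546 and 103 FPKM in WT. Without flg22 the 6 libraries lay between 5.81 and 11.9 FPKM, with a median of 9.46. The groups did not overlap, and the log2 difference was 4.50 (SE 0.67, adjusted p = 0.0122). ERF5, which overlaps with ERF6 in function, reached 266 and 66.5 FPKM in asr3-1, 234 and 36.5 FPKM in OX9 and 238 and 63.1 FPKM in WT. Its libraries without flg22 lay close together, between 7.22 and 9.52 FPKM. The log2 difference was 3.62 (SE 0.55, adjusted p = 0.013).

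ERF13 started lowest among the strongly raised genes. With flg22 it stood at 70.1 and 10.09 FPKM in asr3-1, at 52.3 and 4.70 FPKM in OX9 and at 60.2 and 11.4 FPKM in WT. Without flg22 it lay between 0.503 and 1.39 FPKM, levels at which the added 1 FPKM makes the log2 difference of 3.78 (SE 0.69, adjusted p = 0.0243) understate the change. ERF104, the MPK6 substrate, stood with flg22 at 216 and 62.1 FPKM in asr3-1, at 185 and 37.1 FPKM in OX9 and at 210.4 and 73.3 FPKM in WT. Without flg22 it lay between 11.7 and 18.4 FPKM, the highest median of the group, and its log2 difference was 2.74 (SE 0.47, adjusted p = 0.019).

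The activators ERF2 and ERF1A rose less. With flg22, ERF2 stood at 26.3 and 24.4 FPKM in asr3-1, at 18.2 and 26.3 FPKM in OX9 and at 27.2 and 38.2 FPKM in WT. Without flg22 it stood at 2.34 and 11.1 FPKM in asr3-1, at 1.29 and 7.65 FPKM in OX9 and at 1.90 and 7.09 FPKM in WT. Its untreated libraries of repeat 2 were all below those of repeat 1. ERF1A stood with flg22 at 47.8 and 49.8 FPKM in asr3-1, at 31.7 and 41.6 FPKM in OX9 and at 50.02 and 51.8 FPKM in WT. Without flg22 it stood at 11.9 and 18.5 FPKM in asr3-1, at 10.9 and 22.6 FPKM in OX9 and at 11.1 and 14.5 FPKM in WT. Its treated libraries of asr3-1 and WT lay close together, and those of OX9 below them. The log2 differences were 2.40 for ERF2 (SE 0.46, adjusted p = 0.0275) and 1.58 for ERF1A (SE 0.20, adjusted p = 0.00666).

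The integrators of ethylene and jasmonate, ERF1B and ORA59, stayed low. ERF1B stood with flg22 at 2.47 and 1.39 FPKM in asr3-1, at 2.94 and 1.36 FPKM in OX9 and at 1.84 and 2.06 FPKM in WT. Without flg22 it stood at 0.178 and 0.548 FPKM in asr3-1 and at 0.159 and 0.827 FPKM in OX9, and both WT libraries listed it at 0, so no fold is given for WT. Its log2 difference over the genotypes was 1.24 (SE 0.20, adjusted p = 0.0156). As for ERF13, the added 1 FPKM makes this value understate the change. The mean over libraries was 2.01 FPKM with flg22 and 0.29 FPKM without. ORA59 stood with flg22 at 2.09 and 10.0 FPKM in asr3-1, at 1.45 and 14.3 FPKM in OX9 and at 1.44 and 10.2 FPKM in WT. Without flg22 it stood at 1.57 and 6.71 FPKM in asr3-1, at 6.95 and 5.61 FPKM in OX9 and at 3.27 and 3.69 FPKM in WT. The treated libraries of repeat 1 were thus the highest and those of repeat 2 among the lowest, with the untreated ones mostly between. With flg22 it was higher in 4 of 6 pairs.

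Within single genotypes no member passed the test over all genes with flg22 (limma), although 8 of 9 had an unadjusted p under 0.05 in asr3-1, in OX9 and in WT alike. This test called 0.193% of all genes in asr3-1, 0% in OX9 and 0.101% in WT. The medians of the members' log2 differences were 2.64 in asr3-1, 2.40 in OX9 and 3.19 in WT, where the medians of all genes were -0.04, -0.02 and -0.01. With the replicate block, ERF105 and ERF1A passed in asr3-1 (adjusted p = 0.0321 and 0.0221) and in WT (adjusted p = 0.0333 and 0.0205), where 1.81% and 0.564% of all genes were called. In OX9 the block called 0 members and 0.0482% of all genes. A block that also lets the flg22 response differ between repeats, added after the data were seen, called the same 8 members in each genotype, with 13.1% of all genes called in asr3-1, 9.07% in OX9, 11.3% in WT and 23.8% over the 3 genotypes. The variation of the response from repeat to repeat is then not part of the error. Over the 3 genotypes, the count of 8 members fell to 5 without the untreated WT library of repeat 1 and to 5 without the treated WT library of repeat 2. It fell to 3 without the untreated WT or asr3-1 library of repeat 2, and to 2 without the untreated OX9 library of repeat 2. In each of these fits the direction of all 8 stayed upward. Only ERF105 and ERF1A kept their call whichever library was left out, and each of the others that rose lost it in at least 1 such fit.

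**Figure D2:**
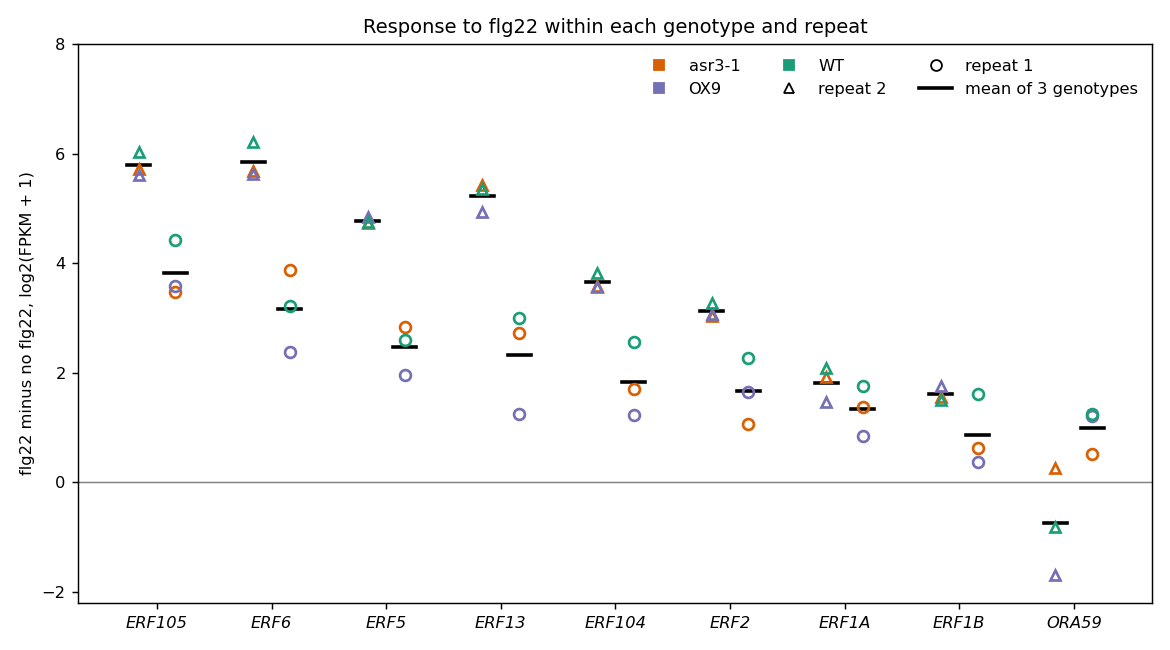
Response to flg22, as log2(FPKM + 1) with flg22 minus without, in each genotype (colour) and repeat (triangles repeat 2, circles repeat 1); bars are means of 3 genotypes. From ERF105 to ERF1B all 6 responses are above 0, and ORA59 has means of -0.74 in repeat 2 and 1.00 in repeat 1.

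The second comparison asked whether the response was of the same size in both repeats, with the 3 genotypes as pairs within each. Of the 9 members 7 differed (limma interaction of repeat and flg22), 6 with a larger response in repeat 2 and 1, ORA59, with a smaller one. Over all genes this test called 8.13% with a larger and 3.13% with a smaller response in repeat 2. ERF13 had a mean response of 5.23 in repeat 2 and 2.32 in repeat 1, a difference of 2.91 (SE 0.39, adjusted p = 0.00118). ERF6 had 5.84 and 3.16 (difference 2.68, SE 0.41, adjusted p = 0.00348), and ERF5 had 4.78 and 2.46 (difference 2.31, SE 0.21, adjusted p = 0.000126). ERF105 had 5.79 in repeat 2 and 3.82 in repeat 1, ERF104 had 3.66 and 1.83, and ERF2 had 3.12 and 1.67. ORA59 had -0.74 in repeat 2 and 1.00 in repeat 1, a difference of -1.74 (SE 0.46, adjusted p = 0.04). That call was lost on leaving out 1 library at a time in 9 of 12 cases (each WT library, each OX9 library and the treated asr3-1 library of repeat 1), with adjusted p of at most 0.111. ERF1A (difference 0.49, SE 0.26, adjusted p = 0.324) and ERF1B (0.74, SE 0.31, adjusted p = 0.193) did not pass.

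The levels behind these differences varied between members. They were compared between repeats within each condition, a comparison added after the data were seen. With flg22, ERF5, ERF6, ERF13, ERF104 and ERF105 were higher in repeat 2 than in repeat 1 by 1.86 to 2.74 on the log2 scale, with adjusted p of 0.000121 or less. Of these 5, ERF105 was also higher without flg22 (0.72, 95% interval 0.29 to 1.14, adjusted p = 0.013), while the untreated levels of the other 4 differed by -0.17 to 0.03. ERF2 was lower in repeat 2 without flg22 (log2 -1.75, adjusted p = 9.05e-05) and did not pass with flg22 (-0.29, 95% interval -0.71 to 0.13). ERF1A was lower without flg22 as well (-0.65, adjusted p = 0.0186) and gave -0.16 with flg22 (95% interval -0.58 to 0.26). ORA59 was lower in repeat 2 with flg22 (-2.23, adjusted p = 0.000402), and its untreated levels gave -0.48 (95% interval -1.22 to 0.25). ERF1B gave 0.39 with flg22 and -0.35 without, neither past the test. With 52.8% of all genes called with flg22 and 44.5% without, a difference in level between repeats was common, and its cause was not tested.

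**Figure D3:**
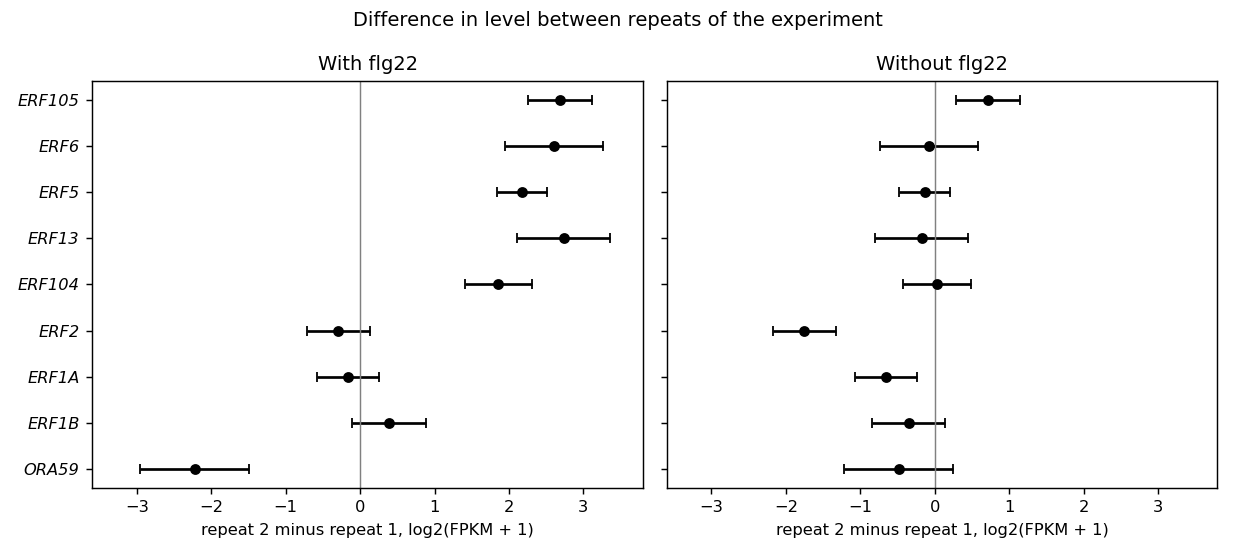
Level in repeat 2 minus level in repeat 1, in log2(FPKM + 1), over the 3 genotypes, with 95% intervals from limma, with flg22 on the left and without on the right. The treated levels of ERF105, ERF6, ERF5, ERF13 and ERF104 lie to the right of 0 and ORA59 to the left, while without flg22 ERF2 lies farthest from 0, at -1.75.

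Correlations over the same 12 libraries were summarized for the groups seen in these differences, so they are not a separate observation. ERF5, ERF6, ERF13, ERF104 and ERF105 correlated with each other at r = 0.98 or more in all 10 pairs (Pearson, log2 values, 12 libraries that share 2 repeats and 3 genotypes). ERF1A and ERF2 correlated at 0.961 with each other and at 0.743 to 0.843 with those 5. ERF5 and ERF6 thus resembled each other (0.995) more than their chromosomal neighbours, ERF2 for ERF5 (0.783) and ERF1A for ERF6 (0.843). ERF1B correlated at 0.863 to 0.914 with the first 7, and ORA59 at -0.333 to 0.195 with all the others. Among all other genes tested, the closest to ERF5 were FBS1, PP2-B13 and MYB51, an activator of indole glucosinolate genes (all 0.998). The closest to ERF13 was CZF1, a CCCH zinc finger gene (0.998), which was second for ERF104 (0.996), after AR781 (0.996). For ERF6 these were AT5G54860, AT1G24140 (both 0.997) and CYP706A2 (0.996), and for ERF105 AT2G40095 (0.995), the zinc finger repressor STZ (0.994) and AT4G27280 (0.993). The calmodulin gene CAM3 was closest to ERF1A (0.978), RTFL12 to ERF2 (0.981), the heat shock factor HSFB2A to ERF1B (0.961) and AT2G30670 to ORA59 (0.932).

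The third comparison set the lines against WT. With flg22, no member passed the test in asr3-1 or OX9 (limma, with the replicate block or without), and none had an unadjusted p under 0.05 in either fit for OX9 or without the block for asr3-1. With the block that lets the response differ between repeats 5 members, all lower in OX9, had an unadjusted p under 0.05. So had 1608 of the 20753 genes tested, counting both directions. The fit without a block called 0% of all genes in asr3-1 and 0.00482% in OX9. In OX9 the treated levels of 7 of 9 members, all but ERF1B and ORA59, were below WT in both repeats, as were those of 29.3% of all genes. The members' log2 differences from WT lay between -0.66 and 0.23 with a median of -0.48, against a median of -0.02 over all genes. All 5 genes described as targets of ERF5 or ERF6 were lower in OX9 too (median -0.67), as were 3 of the 4 other group IX genes tested. So were 13 of the 18 MAP kinase and ethylene signalling genes described below (median -0.08). The members were not set against other genes with a like rise after flg22. The 7 members correlated with each other at 0.743 or more, so their signs are not separate observations. ERF1A had 31.7 and 41.6 FPKM in OX9, against 50.02 and 51.8 FPKM in WT, a log2 difference of -0.48 (95% interval -1.26 to 0.31, adjusted p = 1). With the block that lets the response differ between repeats the same difference had an interval of -0.83 to -0.12 and adjusted p = 0.502. In the same comparison all 8 green tissue markers were lower in OX9 as well (median log2 -0.17, 0 past the test), and they summed to 45030 and 56725 FPKM in OX9, against 57750 and 58305 FPKM in WT, repeat 2 first. The root markers summed to 117.5 and 117.4 FPKM in OX9, against 116.9 and 158.5 FPKM in WT. The sums of all FPKM in repeat 2 were 1032700 in OX9 and 1228100 in WT, and the part of these differences in the members' values was not tested. In 5 of these 7 members the gap was wider in repeat 1. ERF13 stood at -0.20 in repeat 2 and -1.12 in repeat 1 (log2, OX9 minus WT), and ERF104 at -0.19 and -0.96, while ERF1A stood at -0.64 and -0.31. In asr3-1 the treated levels were below WT in both repeats for 3 of 9 members (23.7% of all genes) and above in 1 (27.3%), and the log2 differences lay between -0.34 and 0.16. ERF6 in asr3-1 had 606 and 99.4 FPKM, against 546 and 103 FPKM in WT.

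**Figure D4:**
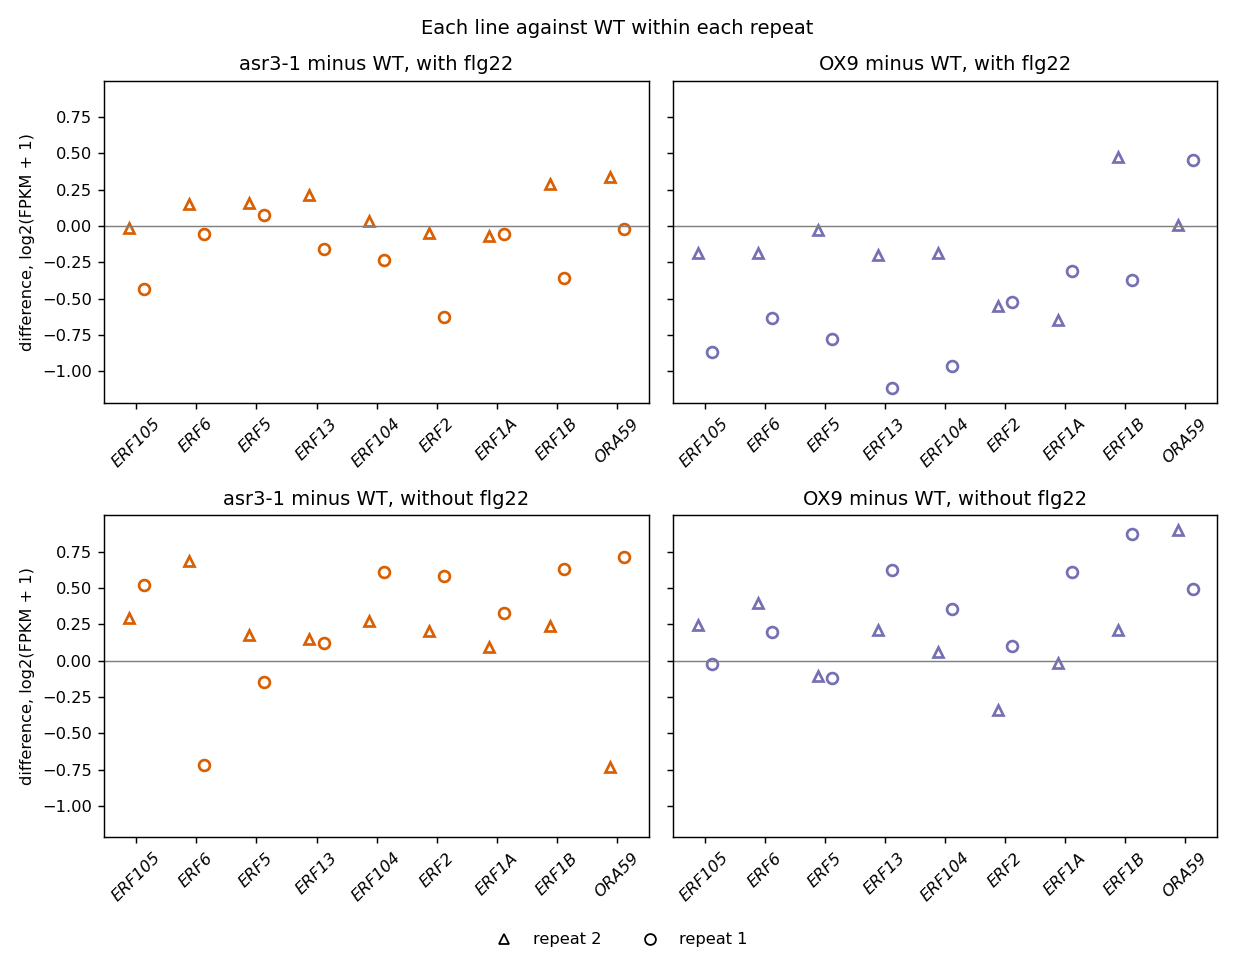
Each line minus WT within each repeat, in log2(FPKM + 1), with flg22 in the top row and without in the bottom row, asr3-1 on the left and OX9 on the right; triangles are repeat 2 and circles repeat 1. With flg22 in OX9 both points lie below 0 for the 7 members from ERF105 to ERF1A, 5 of them farther in repeat 1; no difference passed the test.

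Without flg22 no member differed from WT in either line (limma without the block, none at an unadjusted p under 0.05), where the fit called 0% of all genes in asr3-1 and 0.00964% in OX9. In asr3-1 6 of 9 members lay above WT in both repeats, as did 31.2% of all genes, with log2 differences of -0.02 to 0.44. In OX9 5 of 9 lay above WT in both repeats (28.1% of all genes), with log2 differences of -0.12 to 0.70. ORA59 gave the largest value in OX9, 6.95 and 5.61 FPKM in OX9 against 3.27 and 3.69 FPKM in WT, within an interval of -1.73 to 3.12 for the log2 difference.

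The flg22 responses of the lines passed the test of a difference from that of WT for no member either (limma, 0 members at an unadjusted p under 0.05, 0% of all genes called in each). The members' responses in OX9 minus those in WT were -1.08 to -0.28, with a median of -0.64 against -0.03 over all genes. Of the 9, 7 were smaller in both repeats, against 31.2% of all genes. ERF13, at the low end, had responses of 4.94 and 1.25 in OX9 and of 5.35 and 2.99 in WT, and its difference of -1.08 had an interval of -4.98 to 2.83. In asr3-1 the differences were -0.73 to 0.17, with 4 of 9 smaller in both repeats (28.2% of all genes). These comparisons share the WT libraries and, with those above, the treated libraries of each line. For OX9, 1 member had an unadjusted p under 0.05 with the replicate block, as had 440 of the 20753 genes tested, counting both directions. With the block that lets the response differ between repeats 4 members had, as had 1047 of these genes in both directions. After adjustment 0 members passed in either fit. All 5 genes described as targets of ERF5 or ERF6 also responded less in OX9 than in WT (median difference -1.025), as did all 8 green tissue markers (-0.148). Of the 18 MAP kinase and ethylene signalling genes described below, 13 did so too (-0.092).

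The remaining genes of group IX, from a list of 8, gave mixed values. Of the 8, 4 passed the filter and 2 of these rose over the 3 genotypes, beside 3.83% of all genes. TDR1, which lies beside ERF1B, stood with flg22 at 562 and 61.9 FPKM in asr3-1, at 243 and 36.7 FPKM in OX9 and at 380 and 82.1 FPKM in WT, and at 2.33 FPKM or less in every library without flg22. Its log2 difference was 6.11 (SE 0.73, adjusted p = 0.00552), above that of any of the 9 members. ERF15 rose by 2.49 (adjusted p = 0.0308). AT5G61590 (DEWAX, a repressor of wax synthesis), the neighbour of ERF104, did not pass (-0.34, adjusted p = 0.981). It stood with flg22 at 33.6 and 157 FPKM in WT, and without at 60.2 and 115 FPKM. Its response was smaller in repeat 2 than in repeat 1 by 1.39 on the log2 scale (adjusted p = 9.4e-05), the direction of ORA59. Of the 4 genes tested 2 had a smaller response in repeat 2 and 1 a larger one, beside 3.13% and 8.13% of all genes. The other smaller response was that of AT5G07580 (-0.61, adjusted p = 0.0216), and the larger that of ERF15 (2.01, adjusted p = 0.00365). TDR1 had mean responses of 7.48 in repeat 2 and 4.75 in repeat 1. Its difference of 2.73 had an unadjusted p under 0.05 but did not pass after adjustment. AT5G07580 gave -0.32 over the 3 genotypes (adjusted p = 0.888). ERF14, ESE1, AT5G43410 and AT4G18450 were listed at 0.753 FPKM or less in all libraries.

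Among 18 genes that act before the ERFs, MAP kinase and ethylene signalling genes, 3 rose over the 3 genotypes and 0 fell, beside 3.83% and 0.265% of all genes (median log2 0.33, all genes -0.03). They were the kinase MPK3 (3.14, adjusted p = 0.0362) and the MAP kinase kinases MKK4 (2.57, adjusted p = 0.033) and MKK9 (1.28, adjusted p = 0.0145). The kinase MPK6 gave 0.11 (adjusted p = 0.753), and EIN3, the main transcription factor of ethylene signalling, 0.16 (adjusted p = 0.72). With the replicate block 7 of the 18 passed upward and 0 downward, in a fit that called 15.8% of all genes, 2098 higher and 1181 lower. The added 4 were ACS6, an enzyme of ethylene synthesis (2.06, adjusted p = 0.0926 without and 0.00586 with the block), MKK5 (1.10, 0.181 and 0.0209) and the ethylene receptor genes EIN4 (0.53, 0.198 and 0.0116) and ETR1 (0.34, 0.563 and 0.0236). In the difference between repeats 5 of the 18 had a larger response in repeat 2 and 1 a smaller one, beside 8.13% and 3.13% of all genes. MPK3 (2.21, adjusted p = 7.5e-05), MKK4 (2.11, adjusted p = 8.3e-05) and MKK5 (1.19, adjusted p = 0.000131) had larger responses in repeat 2, as had MKK9 (0.90, adjusted p = 0.0207) and ACS6 (1.33, adjusted p = 0.0216). EBF2, an F-box gene that acts in the turnover of EIN3, had the smaller one (-0.76, adjusted p = 0.0141).

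Genes described as downstream of group IX factors fell into separate patterns. Their lists were chosen with earlier results of these data known, and whether the factors act on them here was not tested. All 5 genes described as targets of ERF5 or ERF6 rose over the 3 genotypes, beside 3.83% of all genes (median log2 4.05, all genes -0.03). They were the repressor STZ (4.33, adjusted p = 0.00774), MYB51 (4.19, adjusted p = 0.0129), WRKY33 (4.05, adjusted p = 0.0169), ERF11, a repressor ERF (3.91, adjusted p = 0.0225), and GA2OX6, which inactivates gibberellins (3.09, adjusted p = 0.00583). All 5 also had a larger response in repeat 2, beside 8.13% of all genes. Of 7 genes known as outputs of GCC boxes, 5 passed the filter and 0 passed the test (median -0.22, 0 at an unadjusted p under 0.05). PDF1.2, which has close copies that the counting could confuse, was listed at 0 to 1.53 FPKM with flg22 and at 0 to 1.12 FPKM without. The chitinase HCHIB, also known as PR3, ranged over 11.7 to 27.4 FPKM with flg22 and 12.2 to 30.8 FPKM without, and PR4 over 24.2 to 78.9 FPKM with flg22 and 33.1 to 80.3 FPKM without. With the replicate block 1 of the 5 was lower at an unadjusted p under 0.05, as 6109 of all genes were at that p in both directions. After adjustment 0 of the 5 passed. LCR67, PDF1.2 and PDF1.2b were listed at 0 in several libraries, so a change in them could be missed. After 30 min no change in these outputs passed the test.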

How the data were processed

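Values are FPKM (fragments per kilobase of transcript, scaled to the library) as deposited by the authors, per the file headers; the sources used here do not give the scaling. From the submitters' processing notes come Cuffdiff 2.2.1, TopHat2 2.0.12, cutadapt 1.0, bcl2fastq 1.8.4 and TAIR10 as the build, with no order or purpose. Per the design text, reads were single-end and 100 nt long. The 12 files per sample hold the values of the table of all samples rounded to 4 decimals. Lines without an identifier (693) and 88 identifiers listed more than once were left out, and 33197 stayed. Names, positions and sequences are from RefSeq TAIR10.1, matched by locus tag.

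The 20753 genes that reached 1 FPKM in 2 or more of the 12 libraries were fitted on log2(FPKM + 1) in R 4.3.3 with limma 3.58.1, a mean for each of 6 groups, mean-variance trend and robust moderation. All p values are 2-sided, and adjusted p values are Benjamini-Hochberg over all genes tested within a comparison, with a threshold of 0.05. The difference between repeats used repeat, flg22, their interaction and genotype. Repeat numbers in the labels mark the independent repeats of the design text, and deviations between repeats correlated across genes at 0.568 to 0.805 in all 15 pairs of groups, so numbers were taken as pairing the libraries, and the replicate block was an alternative. Other alternatives were the pseudocount, the filter, quantile normalization, only the groups compared, and leaving out each library. All 9 members are named; from a list, up to 4 genes with the smallest adjusted p, plus examples chosen after values were seen (MPK6, MKK5, EIN3, EIN4, ETR1, EBF2, PDF1.2 and MT1A); and for each member up to 3 genes with the highest correlation. Members and lists were chosen with earlier results of these data known. Read numbers are unknown, so no counting error is given. Upstream sequences are printed for 4 members, and those of the others are not reported here.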

Additional observations from a re-analysis of the deposited data

Results flagged for a closer look

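The flg22 response of 7 members differed between the repeats of the experiment by the interaction test (limma, repeat 2 minus repeat 1, on the log2 scale). The differences were 2.91 for ERF13, 2.68 for ERF6, 2.31 for ERF5, 1.97 for ERF105 (adjusted p = 0.00128), 1.83 for ERF104 (adjusted p = 0.00286), 1.46 for ERF2 (adjusted p = 0.00588) and -1.74 for ORA59. Each of the first 6 had a larger response in repeat 2 in 3 of 3 genotypes, and ORA59 a smaller one in 3 of 3. Metallothionein MT1A moved with the repeats, and its part in the differences was not tested. Groups of 2 libraries are too small for a check of single libraries that stand apart.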

How the results depend on the processing

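Over the 3 genotypes 8 members passed, and 7 to 8 did with the replicate block, both other pseudocounts, both other filters and quantile normalization; ERF13 was lost at a pseudocount of 5 (adjusted p = 0.0744), and ERF1B fell under the filter of 5 FPKM. Leaving out 1 library always left a group with 1 repeat. The members called then depended on the library left out, as given above, and the reason was not tested. The log2 differences of the 8 then ran from 1.12, the lowest for ERF1B, to 5.30, the highest for ERF105. Within genotypes the count of 0 became 2 in asr3-1 and 2 in WT with the replicate block and 8 in each of the 3 genotypes with the block by flg22; the block changed no other call of a member. For the difference between repeats 6 to 7 members passed with other pseudocounts, filters, quantile normalization and each library left out; its model already holds the repeat and uses all groups, so the other fits do not apply. ERF2 was lost at a pseudocount of 5 (adjusted p = 0.0586) and ORA59 at a pseudocount of 0.1 (adjusted p = 0.0557) and with no filter (adjusted p = 0.0516), where the cause was not tested, and ERF1B passed without the treated WT library of repeat 1 (1.01, adjusted p = 0.0442), where ORA59 did not. Leaving out 1 library turned directions of values that had not passed. ORA59 responses then ran from -0.52 to 1.31 in asr3-1, -1.56 to 1.08 in OX9, -0.88 to 1.32 in WT and -0.32 to 0.57 over the genotypes. ERF1A without flg22 ran from -0.086 to 0.51 in asr3-1 and -0.20 to 0.79 in OX9 against WT, and its difference of response from -0.57 to 0.026 for asr3-1. Medians of the members with flg22 ran from -0.87 to 0.79 in asr3-1 and -1.72 to 0.57 in OX9 against WT, and those of the difference of response from -0.89 to 0.35 in asr3-1 and -1.61 to 0.36 in OX9. Calls over all genes for flg22 over the genotypes were 795 higher and 55 lower, and 2098 and 1181 with the replicate block, 2892 and 2049 with the block by flg22, 727 and 194 after quantile normalization, which moved the median of all genes from -0.03 to -0.13. For the difference between repeats they were 1687 with a larger and 650 with a smaller response in repeat 2, and 1526 and 1315 after quantile normalization. Depth is unknown, so low members such as ERF1B cannot be given a counting error.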
